A study of Mus musculus with 6 samples.

Results

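The genes *Zscan4a*, *Zscan4c*, *Zscan4d*, *Zscan4f*, *Zfp352*, *Tcstv1*, *Tcstv3*, *Usp17la*, *Usp17lc* and *Usp17ld* were followed in control KD and *Yy1* KD mouse morulae. These 10 genes were chosen by name, as transcripts of the two-cell embryo, among the 55364 genes of the deposited table, and each symbol was found once. RNA-seq was performed on 3 libraries of morulae from BDF1 x BDF1 crosses obtained by in vitro fertilization, whose zygotes had received a control siRNA (control KD) and on 3 libraries from zygotes of the same cross that had received an siRNA against *Yy1* (*Yy1* KD). Each library was a pool of 10 whole morulae cultured in KSOM and collected after injection into the cytoplasm of the zygote, so that both groups were injected embryos and cells within an embryo were not separated. An siRNA acts on the transcript and leaves protein that is already in the egg. The authors stained YY1 protein in morulae and reported that it was efficiently depleted after *Yy1* KD. Values are TPM, in which read pairs are divided by gene length and scaled to a fixed total, so that levels of different genes can be set side by side.

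The two-cell stage is when the mouse embryo first transcribes its own genome in bulk, and many transcripts of that stage start in or near the endogenous retrovirus MERVL, which is active at the same time. *Zscan4* genes encode proteins with a SCAN domain and zinc fingers that are known from two-cell embryos and from a small, changing fraction of embryonic stem cells, where they act on telomeres. *Zfp352* encodes a zinc finger protein of the same stage, *Tcstv1* and *Tcstv3* are two-cell-stage variable group genes, and *Usp17la*, *Usp17lc* and *Usp17ld* belong to a family of deubiquitinating enzymes. These transcripts normally fall to low levels after the two-cell stage. Retroviral repeats themselves were not analysed here, so the link of the members to MERVL is taken from general knowledge.

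The members belong to multigene families whose copies resemble one another, and stretches of the promoters show how close they are. Sequences are those of RefSeq (GRCm38.p6), read on the strand of each gene. An entry was found for 7 of the 10 members, and *Zscan4a*, *Tcstv1* and *Tcstv3* had none. Capitals mark the letters TATAAAAG, and each of the following stretches ends with 12 bases after this element or its counterpart. For the *Zscan4* cluster the stretches were chr7:11005611-11005710 (plus strand), chr7:11166194-11166293 (minus strand) and chr7:11397804-11397903 (plus strand).
Zscan4c: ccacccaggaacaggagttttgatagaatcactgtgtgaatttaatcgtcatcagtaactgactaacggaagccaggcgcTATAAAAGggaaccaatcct
Zscan4d: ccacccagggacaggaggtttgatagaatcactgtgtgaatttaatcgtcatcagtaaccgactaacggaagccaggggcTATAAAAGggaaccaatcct
Zscan4f: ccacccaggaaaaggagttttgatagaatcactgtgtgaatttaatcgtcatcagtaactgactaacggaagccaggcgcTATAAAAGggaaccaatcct
Of these 100 bases, *Zscan4c* and *Zscan4f* differed at 1, *Zscan4c* and *Zscan4d* at 4, and *Zscan4d* and *Zscan4f* at 5.

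For the *Usp17l* genes the stretches were chr7:104856890-104856989 (plus strand), chr7:103416528-103416627 (plus strand) and chr7:103252596-103252695 (minus strand).
Usp17la: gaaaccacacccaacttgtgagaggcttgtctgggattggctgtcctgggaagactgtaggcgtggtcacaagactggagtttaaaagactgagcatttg
Usp17lc: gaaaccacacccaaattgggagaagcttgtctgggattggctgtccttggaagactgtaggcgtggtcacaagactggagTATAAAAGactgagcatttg
Usp17ld: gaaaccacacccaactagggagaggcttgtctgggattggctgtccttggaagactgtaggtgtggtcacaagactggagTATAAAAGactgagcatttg
*Usp17lc* and *Usp17ld* differed at 4 of the 100 bases and *Usp17la* differed from each of them at 5. The letters TATAAAAG were present in *Usp17lc* and *Usp17ld* and not in *Usp17la*. The stretch of *Usp17lc* lies before its RefSeq start at 103416696, but within the gene as given by GENCODE vM21, which begins at 103415072.

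*Zfp352* belongs to no such cluster here, and the 250 bases before its start (chr4:90218570-90218819, plus strand) are shown because they are largely a tandem repeat. Capitals mark the 9 exact copies of GACAACACAC, its most frequent run of 10 bases.
Zfp352: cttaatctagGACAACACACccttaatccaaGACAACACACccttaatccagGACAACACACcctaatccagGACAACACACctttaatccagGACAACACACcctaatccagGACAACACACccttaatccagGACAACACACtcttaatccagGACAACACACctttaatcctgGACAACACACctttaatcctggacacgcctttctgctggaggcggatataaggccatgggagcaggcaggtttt

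In the 250 bases before the start, TATAAAA on the strand of the gene was found in 5 of the 7 members and in 3.02% of 32851 RefSeq promoters. The YY1 consensus GCCATNTT was searched on both strands and was found in 0 of the 7 members and in 3.91% of all promoters. Its last 7 letters alone, CCATNTT, which every match of the longer motif also holds, were found on either strand in *Zscan4c*, *Zscan4d* and *Zscan4f* and in 12.4% of all promoters. Since copies of a family share their sequence, neither these 3 matches nor the 5 of TATAAAA, which are 3 *Zscan4* and 2 *Usp17l* genes, are independent, and a match of letters in this window is no evidence of binding.

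Reads of 150 nt could be placed on 1 copy to very different degrees. Of all windows of 150 nt in the annotated transcript, 86.2% for *Zscan4f* and 61.0% for *Zscan4c* were also present, letter for letter, in a transcript of another gene. The share was 25.1% for *Zscan4a* and 13.0% for *Zscan4d*. It was 36.1% for *Usp17ld* and 29.4% for *Usp17lc*, whose transcripts were 97.8% identical over 1988 aligned nt, and 1.28% for *Usp17la*. No window of *Zfp352*, *Tcstv1* or *Tcstv3* was shared, although *Tcstv1* and *Tcstv3* were 92.1% identical over 656 nt. Read pairs of a family are therefore shared among its copies, and a value of a *Zscan4* or *Usp17l* gene is uncertain as to the copy it came from. The windows were searched in annotated transcripts only, so they do not settle this for the *Tcstv* genes. *Tcstv1* and *Tcstv3* also held fractional pairs, and fractions stand for pairs divided with another gene. In control KD replicate 3 they held 55.5 and 59.5 pairs, with a whole sum of 115. In control KD replicate 2 *Tcstv1* held 18.5 and *Tcstv3* 46. In *Yy1* KD replicate 1 *Tcstv1* held 37, *Tcstv3* 47.5 and *AF067061*, also on chromosome 13, 9.5. Which genes divided these pairs was not tested. Under the options stated for genes, a pair that aligned equally well to several places would not have been counted. In control KD replicate 2, however, *Zscan4d*, *Zscan4e* and *Zscan4-ps1* held 7.33, 11.33 and 2.33 pairs. No other gene of GENCODE vM21 overlaps their exons. How pairs with several placements were handled was not tested, so levels of the copies with most shared sequence may be too low or hold pairs of other copies.

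**Figure D1:**
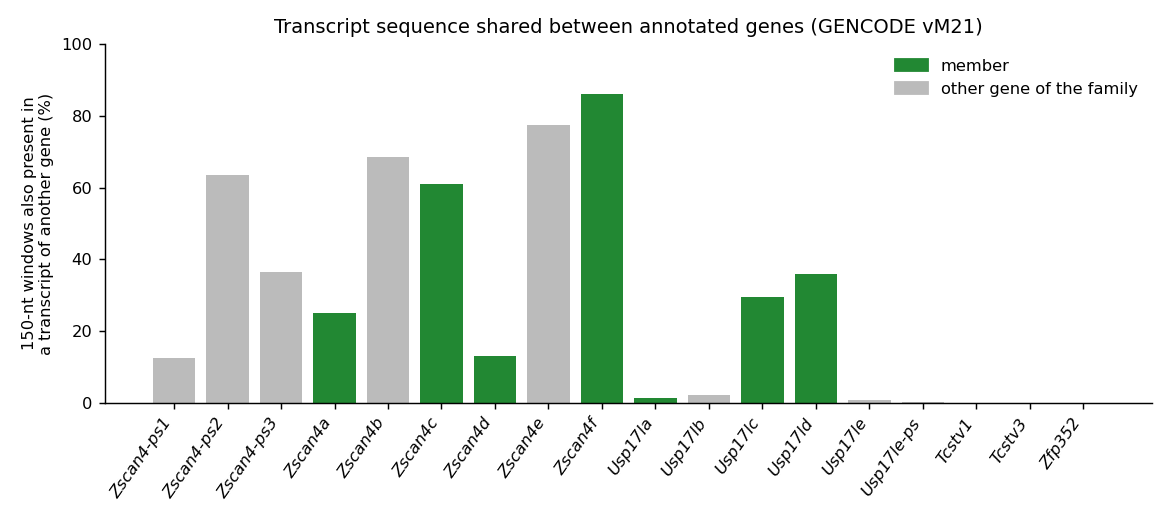
Share of 150-nt windows of the longest annotated transcript of each gene (y axis, %) that occur exactly in an annotated transcript of another gene, for the members (green) and the other listed genes of their families (grey). *Zscan4f* is the highest bar at 86.2%, and *Tcstv1*, *Tcstv3* and *Zfp352* are at 0.

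TPM was multiplied by exon length and divided by the most frequent low value of each library, taken as 1 read pair. Over the genes with a matched annotation this gave between 11793509 and 24417789 read pairs per library, and in these pairs the members were thin. All 10 members together received between 208.83 and 469.5 pairs in a library, fractions being pairs divided among genes. *Yy1*, the target of the siRNA, was at 96.0, 100.2 and 89.8 TPM in the control KD and at 8.73, 8.90 and 8.32 TPM after *Yy1* KD (log2 fold change -3.32 ± 0.09 SE, limma adjusted p = 6.71e-05). The 14 morula genes checked, such as *Pou5f1*, *Nanog* and *Cdx2*, all passed the low-value filter. Their summed level was 3209 to 3339 TPM in control KD and 2693 to 3106 TPM in *Yy1* KD libraries. These ranges did not overlap, and their part in the members' values was not tested. Of the 14, 3 were higher and 11 lower in *Yy1* KD morulae (median log2 fold change -0.14). *Tfap2c* was the 1 called, downregulated from 183.4 to 125.5 TPM (log2 fold change -0.54, limma adjusted p = 0.0174). Of all genes tested, 4.2% were called downregulated. Of 10 cumulus cell genes, 5 were at 0 in every library, *Fshr*, *Has2* and *Ptx3* among them, and the summed level was 1.48 to 3.39 TPM in control KD and 1.66 to 3.36 TPM in *Yy1* KD libraries. Since whole pools were sequenced, fewer cells with a transcript and less of it per cell cannot be told apart.

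*Zscan4a*, *Zscan4c*, *Zscan4d*, *Zscan4f* and *Usp17la* had a mean below 1 TPM in both groups, and *Zscan4a*, *Zscan4c* and *Zscan4f* were below 1 TPM in every library. Genes entered the test where 3 or more of the 6 libraries reached 1 TPM, which left 17353 genes and 5 of the 10 members, *Zfp352*, *Tcstv1*, *Tcstv3*, *Usp17lc* and *Usp17ld*. Differences were fitted with limma on log2(TPM + 1), a scale that compresses differences of genes near 0, and a gene was called at a Benjamini-Hochberg adjusted p under 0.05. *Usp17ld* was upregulated in *Yy1* KD morulae and the other 4 were not called in either direction. Over all genes tested, 1.92% were called upregulated and 4.2% downregulated, and the median log2 fold change was -0.025, beside 0.05 for the 5 members.

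**Figure D2:**
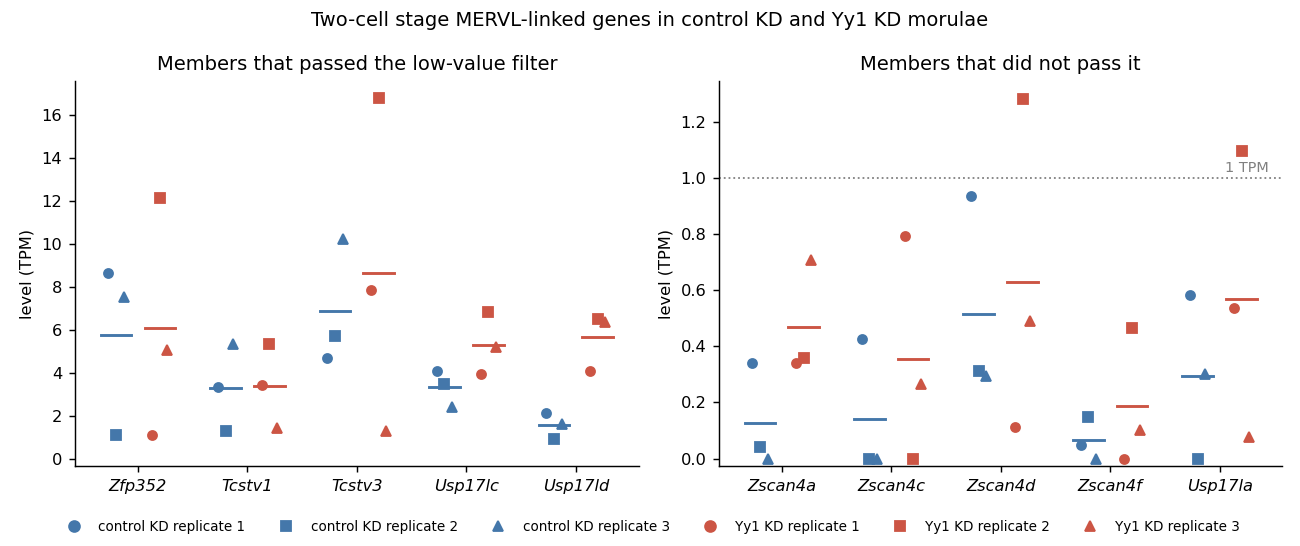
TPM (y axes, linear) of each member in the 3 control KD (blue) and 3 *Yy1* KD (red) libraries, with a marker shape for each replicate number and a bar at each group mean. The 5 members that passed the low-value filter are on the left, where the groups are apart for *Usp17ld* alone, and the 5 that did not are on the right, where single libraries of *Zscan4d* and *Usp17la* exceed the dotted line at 1 TPM.

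The *Zscan4* members lie in 1 cluster on chromosome 7 (GRCm38), from *Zscan4a* at 10794242 to 10799057 through *Zscan4c* (11005745 to 11010547) and *Zscan4d* (11161374 to 11166159) to *Zscan4f* (11397915 to 11402318). GENCODE vM21 gives *Zscan4a* as an unprocessed pseudogene and the others as protein coding. *Zscan4d* had the highest mean of the 4, with control KD levels of 0.935, 0.312 and 0.295 TPM and *Yy1* KD levels of 0.114, 1.28 and 0.489 TPM, which overlapped. These values stand for 11, 7.33 and 5 read pairs in control KD and 2, 16 and 5.5 pairs in *Yy1* KD morulae.

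*Zscan4a* had 4, 1 and 0 read pairs in the control KD libraries (0.339, 0.0425 and 0 TPM) and 6, 4.5 and 8 in the *Yy1* KD libraries (0.340, 0.359 and 0.709 TPM). In TPM the groups did not overlap, by the narrow gap between 0.339 and 0.340 (exact permutation of the libraries, two-sided, p = 0.1, which is as low as 3 against 3 can reach). *Zscan4c* was at 0 in control KD replicates 2 and 3 and in *Yy1* KD replicate 2, had 5 pairs in control KD replicate 1, and had 14 and 3 pairs in *Yy1* KD replicates 1 and 3. *Zscan4f* had at most 5 pairs in any library, the highest count being in *Yy1* KD replicate 2. A count of 0 allows up to 3 pairs, which are worth between 0.128 and 0.240 TPM for *Zscan4c* and 0.205 and 0.198 TPM for *Zscan4f*, so a level of this size was not detectable (counting error only).

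Because some of the sequence is shared among the copies, the *Zscan4* genes were also summed. The 4 members together summed to 1.75, 0.503 and 0.295 TPM in control KD and to 1.25, 2.10 and 1.57 TPM in *Yy1* KD morulae, and the groups overlapped through control KD replicate 1. With *Zscan4b*, *Zscan4e* and the copies *Zscan4-ps1*, *Zscan4-ps2* and *Zscan4-ps3*, which the table also listed, the 9 genes reached 3.35, 1.54 and 1.77 TPM in control KD and 3.32, 3.98 and 3.28 TPM in *Yy1* KD morulae. The whole family thus stayed under 4 TPM in every library and rested on 224 read pairs over the 6 libraries. Of the relatives, *Zscan4b* had 3, 5 and 3 pairs in control KD and 22, 8 and 4.5 pairs in *Yy1* KD morulae, without overlap in TPM (exact permutation, two-sided, p = 0.1). All 9 *Zscan4* genes were left out of the limma fit by the low-value filter.

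*Zfp352* (chromosome 4, 90218820 to 90225702, 2 exons) had the largest within-group spread of log2(TPM + 1) among the 5 members tested, while *Tcstv3* had the largest SD in TPM. Control KD libraries held 8.66, 1.11 and 7.54 TPM and *Yy1* KD libraries 1.08, 12.1 and 5.06 TPM, from 19 to 152 read pairs. Each group held 1 library near 1 TPM, and the groups overlapped over almost their whole range. The means were 5.77 ± 4.08 and 6.09 ± 5.61 TPM (SD, n = 3 libraries each), which gave a fitted difference of -0.02 ± 0.81 (log2, SE; limma adjusted p = 0.991). The sign of this value is not settled, since the median-ratio and quantile scalings gave 0.011 and 0.029, while 6 of the 12 alternatives reversed it.

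*Tcstv1* (chromosome 13, 119893388 to 119894785) and *Tcstv3* (chromosome 13, 120316878 to 120318178) also differed more within than between groups. *Tcstv1* was at 3.32, 1.28 and 5.32 TPM in control KD and 3.42, 5.33 and 1.44 TPM in *Yy1* KD libraries. *Tcstv3*, the member with the highest mean level, was at 4.71, 5.72 and 10.2 TPM in control KD and 7.87, 16.8 and 1.30 TPM in *Yy1* KD libraries. The read pairs of *Tcstv1* were 24, 18.5 and 55.5 in control KD and 37, 41 and 10 in *Yy1* KD libraries. Those of *Tcstv3*, whose exons span 779 nt, were 19, 46 and 59.5 in control KD and 47.5, 72 and 5 in *Yy1* KD libraries. For both genes the lowest *Yy1* KD library was replicate 3, with few pairs, and the highest replicate 2. The log2 fold changes were 0.05 ± 0.48 (SE) for *Tcstv1* (limma adjusted p = 0.969) and -0.08 ± 0.71 for *Tcstv3* (limma adjusted p = 0.960), and both changed sign when single libraries were left out. For *Tcstv3* the value was 0.73 without *Yy1* KD replicate 3 and -0.74 without *Yy1* KD replicate 2.

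The *Usp17l* members lie on chromosome 7, *Usp17ld* from 103249737 to 103252505, *Usp17lc* from 103415072 to 103419880 and *Usp17la* from 104857009 to 104862667. *Usp17ld* was found at 2.14, 0.926 and 1.62 TPM in control KD and at 4.09, 6.50 and 6.35 TPM in *Yy1* KD morulae. Every *Yy1* KD value was higher than every control KD value. The read pairs behind them were 22, 19 and 24 in control KD and 63, 71 and 62.5 in *Yy1* KD morulae, in libraries of which the deepest was a control KD library.

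The *Usp17ld* means were 1.56 ± 0.609 TPM (control KD) and 5.65 ± 1.35 TPM (*Yy1* KD), SD over n = 3 libraries, with a ratio of 3.62. On the log2 scale the increase was 1.38 ± 0.27 (SE, limma adjusted p = 0.0363). The exact permutation test of this gene gave p = 0.1. Groups did not overlap in 12.9% of all genes tested in the upward and in 17.2% in the downward direction, and among the 5 members tested *Usp17ld* was the 1 without overlap. The call was kept with a pseudocount of 0.1, median-ratio scaling, quantile normalization and limma-voom on read pairs, where the log2 fold change was 1.95 (adjusted p = 0.0101). It was lost when any 1 library was left out, with log2 fold changes of 1.19 to 1.56 and adjusted p of 0.0549 to 0.119, without the low-value filter (adjusted p = 0.0979) and with a replicate block (adjusted p = 0.0937).

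*Usp17lc*, the gene closest to *Usp17ld* in sequence, was at 4.10, 3.47 and 2.40 TPM in control KD and 3.95, 6.82 and 5.18 TPM in *Yy1* KD libraries. The groups overlapped through control KD replicate 1 and *Yy1* KD replicate 1, and the difference of 0.54 ± 0.25 on the log2 scale (SE) was not called (limma adjusted p = 0.250). Since the copies share sequence, their sum was also taken. *Usp17lc* and *Usp17ld* together were at 6.24, 4.40 and 4.02 TPM in control KD and at 8.04, 13.3 and 11.5 TPM in *Yy1* KD libraries, without overlap. The sum contains *Usp17ld*, whose groups are apart by themselves, so it is no independent result. Whether pairs of *Usp17lc* were placed on *Usp17ld* differently in the 2 groups was not tested.

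*Usp17la* was low, with 8, 0 and 6 read pairs in control KD and 11, 16 and 1 in *Yy1* KD libraries, or 0.582, 0 and 0.303 TPM against 0.535, 1.10 and 0.0760 TPM. Of the listed relatives, *Usp17lb* (log2 fold change 0.75, limma adjusted p = 0.549) and *Usp17le* (0.64, limma adjusted p = 0.514) were tested and not called. *Usp17lb* ranged from 0.434 to 5.32 TPM in control KD and from 1.82 to 10.02 TPM in *Yy1* KD libraries, a wide overlap. The copy *Usp17le-ps* had 12 read pairs in *Yy1* KD replicate 1 and 0 in the other 5 libraries. All 6 *Usp17l* genes summed to 14.8, 6.44 and 7.02 TPM in control KD and 14.8, 29.1 and 16.5 TPM in *Yy1* KD libraries, where control KD replicate 1 and *Yy1* KD replicate 1 were nearly equal.

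Among the 5 members tested, *Zfp352* and the *Tcstv* genes varied more between libraries of the same group than *Usp17lc* and *Usp17ld* did. The relatives *Usp17lb* and *Usp17le* were not as even as these members, with standard errors of the log2 fold change of 0.67 and 0.53, beside 0.48 for *Tcstv1*. The within-group SD of log2(TPM + 1) was 1.28 for *Zfp352*, 1.12 for *Tcstv3* and 0.72 for *Tcstv1*. Among the 8885 tested genes with a mean of 1 to 10 TPM the median was 0.33, and 96.5%, 94.6% and 85.1% of them, respectively, had a smaller SD than these 3 genes. These genes were matched on TPM and not on read pairs, of which *Tcstv1* held 10 to 55.5 and *Tcstv3* 5 to 72 per library. The part of counting error in the spread was not tested. *Usp17ld* and *Usp17lc* were near the median of such genes, with 0.34 and 0.31. The standard error of the log2 fold change was accordingly 0.81 for *Zfp352* and 0.27 for *Usp17ld*.

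This variation was uneven across libraries. *Yy1* KD replicate 2 had the highest TPM of all 6 libraries for 8 of the 10 members, against 13.9% of all genes tested, while no control KD library was the highest for any member. For *Tcstv1* this rests on 5.333 TPM (41 pairs) against 5.321 TPM (55.5 pairs) in control KD replicate 3, which is within counting error. The same holds for *Usp17ld*, with 6.497 TPM (71 pairs) against 6.349 TPM (62.5 pairs) in *Yy1* KD replicate 3. For *Zscan4f* it rests on 5 pairs against 3 in control KD replicate 2. Copies of a family share sequence, so the 8 members are not independent. Among the 18 members and listed relatives with reads, *Yy1* KD replicate 2 was the highest for 11, and control KD replicates 1 and 3 for 1 each. The exceptions were *Zscan4a*, highest in *Yy1* KD replicate 3, and *Zscan4c*, highest in replicate 1. The same library was the highest for 15 of the 35 detected genes of a list of other two-cell transcripts and for 6 of 11 oocyte genes such as *Gdf9* and *Zp2*. It was the highest for 1 of 14 morula genes and the lowest for 7 of them, beside 21.2% of all genes tested for which it was the lowest. The part of this library in the members' levels was not tested beyond leaving it out. Without it, the log2 fold change was 1.29 for *Usp17ld* (limma adjusted p = 0.119), -0.65 for *Zfp352*, -0.27 for *Tcstv1* and 0.38 for *Usp17lc*.

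**Figure D3:**
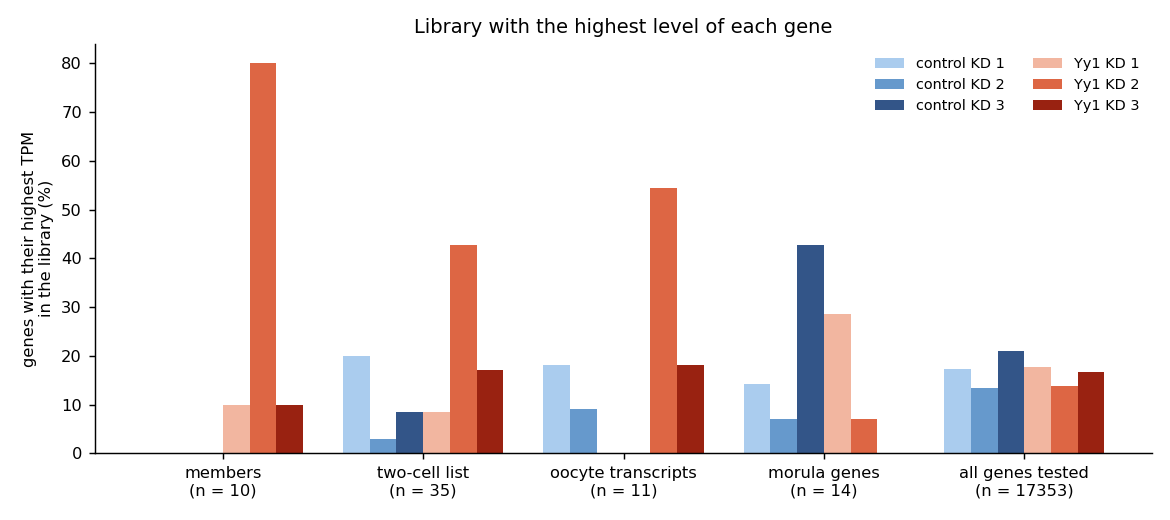
Share of genes (y axis, %) whose highest TPM of the 6 libraries was in the library shown, for the members, the list of other two-cell transcripts, oocyte and morula genes, and all genes tested, with control KD libraries in blue and *Yy1* KD libraries in red. *Yy1* KD replicate 2 holds 80.0% of the members and 13.9% of all genes tested.

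The summed level of the 11 oocyte genes was 70.2 to 87.7 TPM in control KD and 71.4 to 96.9 TPM in *Yy1* KD libraries, and 0 of the 10 that were tested was called (median log2 fold change 0.01). Genes of sperm were near 0, with a summed level of 0.216 to 0.542 TPM in control KD and 0 to 2.26 TPM in *Yy1* KD libraries, and 0 of 6 passed the filter. Means of the 11 oocyte genes ranged from 0.468 (control KD) and 0.992 TPM (*Yy1* KD) for *Figla* to 18.4 and 20.7 TPM for *Gdf9*. *Gdf9*, a growth factor of the oocyte, was above the mean of every member. Others, such as *Nobox* (2.04 and 1.92 TPM) and *Mos* (2.49 and 1.71 TPM), were below that of *Tcstv3* (6.89 and 8.66 TPM).

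Of the list of 37 other transcripts of two-cell embryos, 36 were in the table and 28 were tested. Their levels were very unlike, and some were abundant in morulae. Control KD means were 864, 730, 724, 546 and 463 TPM for *Trim43a*, *Pramel7*, *Trim43b*, *Obox6* and *Pramel6*, and 2.775 TPM for *Gm2016*. *Gm2016* was called upregulated, 0 were called downregulated and the median log2 fold change was 0.17. Groups did not overlap for 6 of the 28 genes in the upward and 4 in the downward direction, beside 12.9% and 17.2% of all genes tested, and the calls stand beside 1.92% and 4.2%. The 4 downward genes were *Pramel6*, *Trim43b*, *Trim43c* and *Tmem92*. The list as a whole was not tested. *Gm2016* (chromosome 12, 87874072 to 87877859), one of a cluster of predicted genes, was at 3.83, 1.04 and 3.45 TPM in control KD and 9.88, 9.78 and 18.4 TPM in *Yy1* KD libraries (log2 fold change 1.90 ± 0.40 SE, limma adjusted p = 0.0432). All *Yy1* KD values were above all control KD values, and the call was lost when any 1 library was left out (adjusted p 0.0722 to 0.104) and with a pseudocount of 0.1 (adjusted p = 0.0546).

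*Gm5662* and *Gm8300*, from the same stretch of chromosome 12, and *Tdpoz3*, from a family of speckle-type POZ proteins, had the largest differences among the genes not called. Their log2 fold changes were 1.84 (limma adjusted p = 0.0700), 1.34 (0.0607) and 1.41 (0.0609), and the groups did not overlap for any of them. Some of these genes are near-identical copies too. *Gm2016* and *Gm5662* were 99.3% identical over 1766 nt, and 43.7% and 40.3% of their 150-nt windows were shared with other genes. Limma-voom on read pairs called *Gm5662*, *Gm8300* and *Tdpoz3* (adjusted p = 0.0113, 0.0145 and 0.0287), and *Tdpoz3* was also called without *Yy1* KD replicate 1 (0.0228). *Duxf3*, the gene of the activator Dux, did not pass the filter and ranged from 0 to 0.491 TPM over all libraries.

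**Figure D4:**
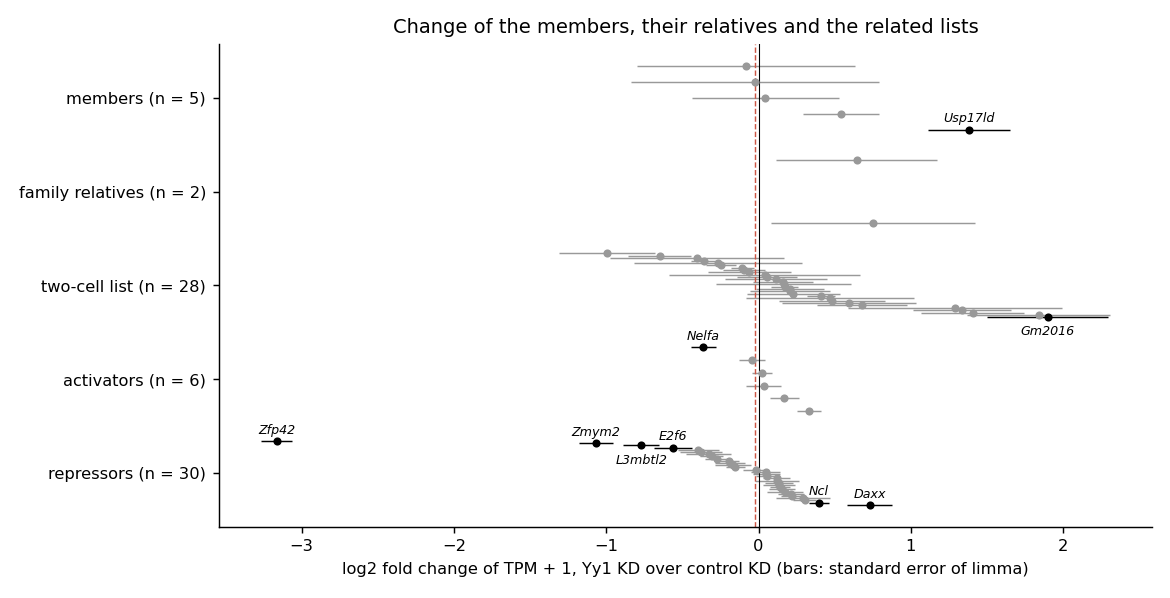
Log2 fold change of TPM + 1 (x axis, *Yy1* KD over control KD, with the standard error of limma) for tested members, listed relatives of their families, other two-cell transcripts, activators and repressors. Called genes are black and named, the others grey, and the dashed line is the median of all genes tested (-0.025). *Usp17ld* is the called member at 1.38.

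Factors known to turn two-cell or MERVL transcripts on or off in embryonic stem cells were examined as 2 further lists. Of 8 activators, 6 were tested, 0 were called upregulated and *Nelfa*, a subunit of the negative elongation factor, was called downregulated. *Nelfa* averaged 44.1 ± 1.93 TPM (control KD) and 34.1 ± 1.06 TPM (*Yy1* KD), SD over n = 3, a log2 difference of -0.36 with a limma adjusted p of 0.0499, and 11 of 12 alternatives lost this call. *Dppa2* (log2 fold change 0.33, limma adjusted p = 0.0577), *Dppa4* (0.17, 0.331) and *Klf5* (-0.04, 0.809) were not called. *Dppa2* and *Dppa4*, which act together upstream of *Dux*, were at 738 and 276 TPM in control KD morulae, far above the members.

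All 30 repressors were tested, and 2 were upregulated and 4 downregulated, with a median log2 fold change of 0.05, beside 1.92% and 4.2% of all genes tested. Groups did not overlap for 7 of the 30 upward and 11 downward, beside 12.9% and 17.2% of all genes, and the list was not tested as a set. The 4 downregulated genes were *Zfp42* (also called *Rex1*, a relative of *Yy1*), *Zmym2*, which binds the LSD1 complex, and *L3mbtl2* and *E2f6*, both of the same variant Polycomb complex. *Zmym2* fell from 37.5 ± 2.02 to 17.4 ± 1.90 TPM (log2 fold change -1.07, limma adjusted p = 0.00947) and *L3mbtl2* from 33.9 ± 2.55 to 19.5 ± 2.28 TPM (-0.77, 0.0204). *Zfp42* fell from 218 ± 8.57 to 23.5 ± 2.85 TPM (-3.17, 1.18e-04) and *E2f6* from 19.1 ± 0.666 to 12.7 ± 1.57 TPM (-0.56, 0.0468; SD, n = 3 libraries each in all 4 cases).

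The 2 upregulated repressors were *Daxx*, a chaperone of histone H3.3, from 31.3 ± 4.54 to 52.6 ± 7.77 TPM (log2 fold change 0.73, limma adjusted p = 0.0408), and *Ncl*, which encodes nucleolin, from 850 ± 28.8 to 1119 ± 29.1 TPM (0.40, 0.0252; SD, n = 3 each). Leaving out single libraries kept the call of *Zfp42* in all 6 fits, of *Zmym2* in 5 and of *L3mbtl2* in 1, and lost that of *E2f6*, *Daxx* and *Ncl* in all 6. Of the repressors not called, *Chaf1b* (-0.40, limma adjusted p = 0.133), *Uhrf1* (-0.38, 0.151) and *Smchd1* (-0.33, 0.245) had the largest differences, and *Trim28* and *Setdb1* were at 0.14 and 0.05 on the log2 scale.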

How the data were processed

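Total RNA of pooled morulae was sequenced as paired ends with the SMART-Seq Stranded kit. The authors trimmed the reads (Trim Galore 0.6.7), aligned them to mm10 (HISAT2 2.2.1), removed ribosomal RNA with bedtools, assigned pairs to GENCODE vM25 genes with featureCounts 2.0.1 (without strand, pairs on several genes divided) and deposited TPM per gene. Column names gave the group and replicate, and 0 columns were left unused. Genes were matched to GENCODE vM21 (54312 of 55364 by identical version), whose exon lengths turned TPM into read pairs, and between 89.0% and 90.9% of values under 20 pairs were whole within 0.02. For 17353 genes, log2(TPM + 1) was modelled with limma 3.58.1 (R 4.3.3) with a variance trend, two-sided, after a trial on simulated data. The authors tested counts with edgeR, which was not run on TPM. Single genes were compared by two-sided exact permutation tests (smallest p 0.1). Pearson's r between libraries was 0.955 to 0.962 within and 0.935 to 0.9496 between groups. Nothing in the labels says that replicates came from separate matings, so p-values measure the spread between these libraries.

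The members and lists were chosen with earlier results of these data known, and lists were written from general knowledge. Named were the members, listed genes starting with Zscan4, Tcstv or Usp17l, *Yy1*, *Yy2* and *Zfp42*, called genes of the lists of two-cell transcripts, activators and repressors and the 3 largest differences among the rest of each list, and the 5 genes most like the member of highest mean. Other genes were named after their values were seen. Alternatives were a pseudocount of 0.1, no filter, median-ratio scaling, quantile normalization, a replicate block, leaving out each library, and, added after seeing the data, limma-voom on read pairs. Protein sequences and the genome sequence were not used here.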

Additional observations from a re-analysis of the deposited data

How the results depend on the processing

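The number of upregulated and downregulated genes was 333 and 728, and it was 77 and 270 without the low-value filter, 69 and 218 with a replicate block, 809 and 1280 with limma-voom, 388 and 548 with quantile normalization, and 22 to 92 and 53 to 326 when 1 library was left out (lowest without control KD replicate 3). *Usp17ld* kept its direction in all alternatives and lost its call without the filter (log2 fold change 1.38), with the replicate block (1.38) and without any 1 library (1.19 to 1.56). *Zfp352* was at 0.011 with median-ratio scaling, 0.029 with quantile normalization and 0.023 with limma-voom, and leaving out 1 library gave -0.73 to 0.68 for *Zfp352*, -0.35 to 0.42 for *Tcstv1*, -0.74 to 0.73 for *Tcstv3* and -0.10 to 0.015 for *Klf5*. *Usp17lc* was not called in any alternative. Of the two-cell list, the 1 upregulated and 0 downregulated genes became 0 upregulated with a pseudocount of 0.1, without the filter and with the replicate block, 2 and 1 with quantile normalization, 5 and 2 with limma-voom, and 0 to 1 upregulated when 1 library was left out. Of the activators, the 1 downregulated gene became 0 with a pseudocount of 0.1, without the filter, with either scaling, with the replicate block and without any 1 library, and limma-voom called 1 upregulated. Of the repressors, the 2 upregulated became 0 without the filter, with the replicate block and without any 1 library, and the 4 downregulated became 1 to 3 without 1 library. The cause of these differences was not tested. The labels do not say whether same-numbered libraries were prepared together. Deviations of same-numbered libraries correlated at -0.00388, 0.0319 and 0.0747 across genes, none over 0.1. Those of differently numbered libraries correlated at -0.0713 to 0.0411. Weak correlations of deviations from means of 3 libraries cannot show whether the libraries were paired. Depth limits the *Zscan4* genes, which rest on 224 read pairs in all, and *Usp17la*, and shared sequence limits *Zscan4c* and *Zscan4f* as well. It also limits *Tcstv3* in *Yy1* KD replicate 3, where depth gave 5 pairs.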

Other observations

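*Tcstv3*, the member with the highest mean level, was compared with 10669 tested genes with a mean of at least 5 TPM by Pearson's r of log2(TPM + 1) over the 6 libraries. The most alike were *Snora5c* (r = 0.993), *Gm45412* (0.965), *Rps23-ps2* (0.964), *Gm24888* (0.960) and *Gm5611* (0.956), which is a description over 6 points that share their libraries and the 2 groups. *Snora5c*, a small nucleolar RNA gene, was at 15.6, 15.3 and 21.7 TPM in control KD and 18.0, 26.7 and 8.16 TPM in *Yy1* KD libraries, so that it too was highest in *Yy1* KD replicate 2 and lowest in replicate 3.

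*Yy2*, the relative of *Yy1* that was named beside *Zfp42*, differed by 0.19 on the log2 scale, which limma did not call (adjusted p = 0.466).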
